A study of Mus musculus with 36 samples.

Results

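MicroRNA miR-22 is cut from 1 hairpin precursor, and its mature products, mmu-miR-22-3p and mmu-miR-22-5p (miR-22-3p and miR-22-5p from here on), are described here in mouse liver and fat. They are 2 of the 1966 mature microRNAs (miRNAs) in the deposited count table and fill 2 of its 2118 lines. They were picked out of the table by their mature names. Small RNA was sequenced from liver and from epididymal white adipose tissue (eWAT, the fat pad beside the testis) of wild-type C57BL/6 males of the F1 generation, 24 weeks old. Each tissue had 3 diet groups, LF, HF and HFLF, with 6 libraries each and 36 libraries in all. The groups carry the diet tags LFD, HFD and HFLFD. All mice had chow until 6 weeks of age and then a specific diet for 18 weeks, but the treatment text names LFD for every sample, so the labels do not settle whether a group name is the diet of the mouse or of its father. The labels do not say that libraries of a group came from separate mice, so p-values measure only the spread between these libraries, which may be technical.

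Most animal miRNAs leave the Dicer enzyme as a duplex of the 5p and 3p arms of a hairpin, and 1 strand is usually kept in an Argonaute protein while the other is degraded more quickly. The kept strand pairs through its seed, the bases next to its 5′ end, with sites in messenger RNAs and lowers their translation or stability. For miR-22 the 3p arm is the usual guide strand. It is known for repressing the Tet enzymes of DNA demethylation, and it has been studied in fat storage in liver and adipose tissue.

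The mature sequences and the precursor are shown because the ratio of the arms is one of the measurements below. They come from RefSeq, build GRCm38.p6, and read 5′ to 3′. Capitals mark the seed (bases 2 to 8) in the mature miRNAs and the arms in the hairpin.

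miR-22-3p: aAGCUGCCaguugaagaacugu

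miR-22-5p: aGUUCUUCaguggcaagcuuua

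Mir22 hairpin: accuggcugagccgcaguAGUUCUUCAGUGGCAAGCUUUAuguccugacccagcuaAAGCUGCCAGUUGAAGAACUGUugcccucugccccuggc

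The hairpin of 95 bases lies on the plus strand at chr11:75463716-75463810, with the 5p arm at chr11:75463734-75463755 and the 3p arm at chr11:75463772-75463793. In the GENCODE annotation of the same build the whole hairpin lies in exon 2 of the long noncoding RNA Mir22hg, and also in exon 2 of Tlcd2-203, a transcript of the protein-coding gene Tlcd2. Each arm is 22 bases long, with a G+C content of 45.5% in miR-22-3p and 40.9% in miR-22-5p. Folding with RNAfold paired 19 bases of each arm with the other arm across a stretch of 16 bases, at a minimum free energy of -41.90 kcal/mol. No other of the 1679 mature miRNAs in the RefSeq table shared bases 2 to 8 with either arm, so miR-22 is a seed family of its own in that table. Bases 2 to 7 of miR-22-5p were shared by 2 others, miR-6935-3p and miR-7092-3p, and those of miR-22-3p by 0.

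The 36 libraries held 7866583 to 18832842 counts in liver and 9066683 to 17714156 in eWAT. Hepatocyte miRNAs marked the liver: the 8 miRNAs of that list summed to 522616 to 610828 CPM (counts scaled to a library total of 1000000) in liver and 7386 to 12886 in eWAT. Most of the liver sum was miR-122-5p, at 45.6% to 57.0% of the counts of a liver library. On this scale miR-101a-3p of the list differed little between the tissues (log2 liver minus eWAT -0.34 in LF, 0.08 in HF and 0.14 in HFLF). The 7 miRNAs of the adipocyte and fat stroma list summed to 166655 to 260946 CPM in eWAT and 7952.5 to 17304 in liver, where miR-196a-5p and miR-196b-5p had a median of 0 counts. Some libraries stood apart, 2 in each tissue. In liver, LF 4 and HF 6 held 316 and 368 miRNAs with a count against 540 to 633 in the other 16, and both are missing from the authors' deposited log2 table of the liver. In eWAT, the epithelial list (7 miRNAs, the miR-200 family with miR-205-5p and miR-375-3p) summed to 19172 CPM in LF 1 and 23636 in LF 4, against 64.0 to 339 in the other 16, and none of the 7 had a median of 0 counts. The main results these libraries touch are given with and without them.

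Both arms were abundant, and miR-22-3p was the major one in every library. In liver miR-22-3p had 6815 to 63586 counts and ranked 24 to 39 among all miRNAs by count (median 29). In eWAT it had 18997 to 64825 counts and ranked 32 to 58 (median 42.5). miR-22-5p had 1906 to 7690 counts in liver, at ranks 59 to 89, and 1535 to 3583 counts in eWAT, at ranks 113 to 148. Without the libraries that stood apart miR-22-3p ranked 24 to 33 in liver and 32 to 48 in eWAT, and miR-22-5p 77 to 89 and 113 to 133. The 95% Wilson interval was at most 2.37% of the value to either side for miR-22-3p and 5.0% for miR-22-5p. These intervals cover counting error only, because copies made by PCR were not told apart by molecular identifiers, and they are far narrower than the spread between libraries described next.

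In liver, miR-22-3p had no diet difference beyond the spread between libraries. Levels here are CPM scaled within a tissue by TMM (trimmed mean of M values, which assumes that most miRNAs do not differ between libraries). In LF the lowest library had 1148 CPM, the median was 2635 and the highest 3389 (mean 2474 ± 778, SD, n = 6). In HF the values ran from 1330 over a median of 2832 to 3240 (2611 ± 676, n = 6). In HFLF they ran from 2513 over a median of 3244 to 3475 (3116 ± 398, n = 6). The 3 ranges overlapped, and the lowest values of LF and HF were those of LF 4 and HF 6. Without these libraries the means were 2739 ± 479 in LF (n = 5) and 2867 ± 280 in HF (n = 5).

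The fit across all liver miRNAs gave the same picture for miR-22-3p. The log2 difference was 0.08 ± 0.22 (SE) for HF minus LF, a 1.06-fold level with a 95% interval of 0.762 to 1.46. It was 0.33 ± 0.22 for HFLF minus LF (1.26-fold, 0.909 to 1.75) and 0.26 ± 0.22 for HFLF minus HF (1.19-fold, 0.862 to 1.65). By edgeR's quasi-likelihood test with Benjamini-Hochberg adjustment the adjusted p values were 0.998, 0.989 and 0.999. The differences share libraries and are not independent of each other. In liver edgeR called 0 of 478 miRNAs (0%) in each of the 3 comparisons, with 16, 14 and 5 at an unadjusted p under 0.05, and DESeq2 called 0 in each as well. The direction of HF minus LF turned when LF 4 was left out (-0.08).

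miR-22-5p, the minor arm, also overlapped between the liver groups. Its CPM ran from 210 over a median of 257 to 358 in LF (265 ± 50.6, n = 6). The HF libraries ran from 212 over 253 to 540 (295 ± 122.4, n = 6), and the HFLF libraries from 218 over 278 to 325 (275 ± 36.5, n = 6). The highest values of LF and HF under TMM were again LF 4 and HF 6, the libraries with the lowest miR-22-3p. As a share of all counts LF 4 was not the highest of LF, with 250 CPM against 269.9 in LF 1. Without them LF and HF lay at 247 ± 25.0 and 246 ± 24.9 CPM (n = 5 each). The log2 difference was 0.15 ± 0.20 for HF minus LF, 0.05 ± 0.20 for HFLF minus LF and -0.10 ± 0.20 for HFLF minus HF, with edgeR adjusted p of 0.998, 0.989 and 0.999. Without LF 4 and HF 6 the first of these was -0.01 and the last 0.16, and the last was 0.03 under total count scaling, so these directions are not set.

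**Figure D1:**
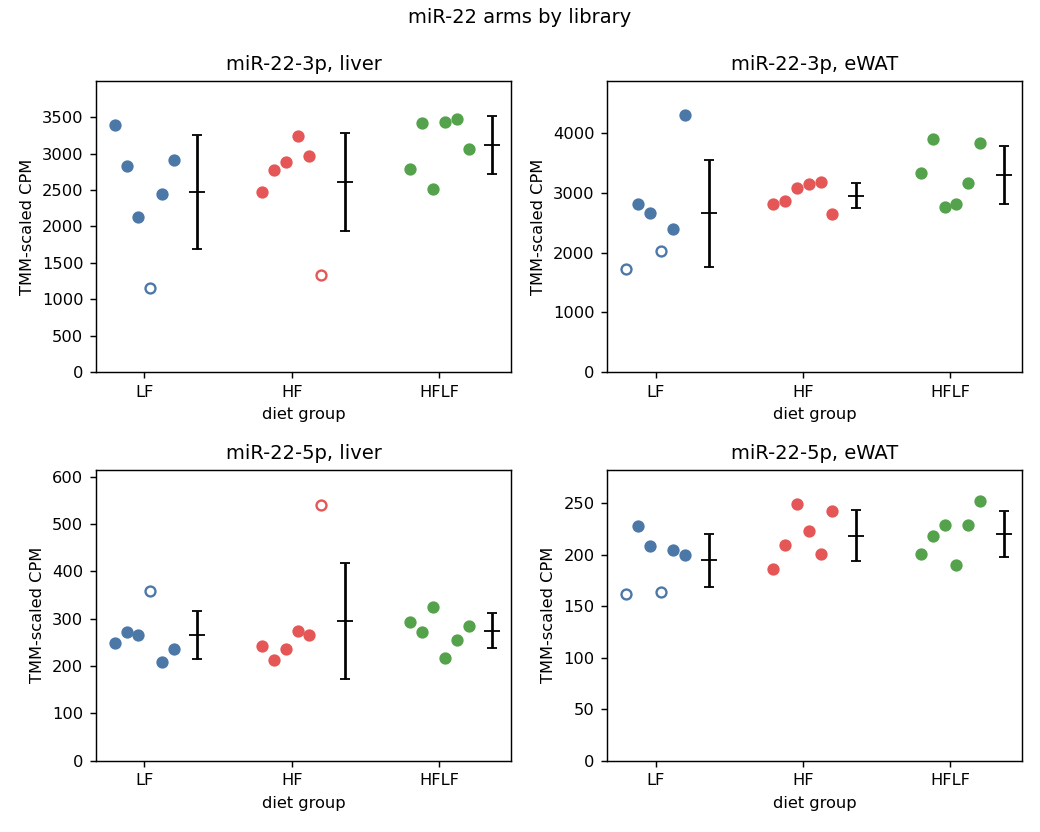
TMM-scaled CPM of miR-22-3p (top) and miR-22-5p (bottom) in each liver (left) and eWAT (right) library by diet group, on linear axes from 0. Each point is 1 library, open points are the 4 libraries that stood apart, and the bar beside each group is the mean ± SD (n = 6). In liver the open points are low for miR-22-3p (1148 and 1330 CPM) and high for miR-22-5p (358 and 540 CPM), and in eWAT they are low for both arms.

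In eWAT miR-22-3p averaged 1.24-fold higher in HFLF than in LF, which did not pass the test. Its CPM in LF ran from 1732 over a median of 2535 to 4301 (2658 ± 899, n = 6). In HF it ran from 2641 over 2967 to 3178 (2954 ± 214, n = 6), and in HFLF from 2760 over 3250 to 3903 (3304 ± 488, n = 6). The ranges overlapped, and LF held both the lowest values and, in LF 6, the highest. The log2 difference was 0.31 ± 0.16 for HFLF minus LF (95% interval of the fold 0.978 to 1.58, unadjusted p = 0.0676, edgeR adjusted p = 0.385). It was 0.15 ± 0.16 for HF minus LF (adjusted p = 0.867) and 0.16 ± 0.16 for HFLF minus HF (adjusted p = 0.997).

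Single LF libraries decided the size of that difference. LF 1 and LF 4, the libraries with the epithelial miRNAs, had the lowest miR-22-3p in eWAT, 1732 and 2029 CPM. Without both, the LF mean was 3047 ± 853 CPM (n = 4) and HFLF minus LF fell to 0.10 ± 0.13 on the log2 scale (edgeR adjusted p = 0.945), while HF minus LF turned to -0.04. Without LF 1 alone HFLF minus LF was 0.17. Without LF 6 instead, it was 0.46 ± 0.12 and passed (edgeR adjusted p = 0.0396), in a fit that called 17 miRNAs. Over all the settings tried the adjusted p ran from 0.0396 to 0.945. The part of the epithelial miRNAs in the low values of LF 1 and LF 4 was not tested.

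miR-22-5p overlapped between the eWAT groups as well. Its CPM ran from 162 over a median of 202 to 228 in LF (195 ± 26.1, n = 6). HF libraries held 186 to 250 with a median of 217 (219 ± 24.7, n = 6), and HFLF libraries 190 to 252 with a median of 223 (220 ± 22.4, n = 6). The lowest, 162 and 164, were LF 1 and LF 4, and without them LF lay at 210 ± 12.2 CPM (n = 4), so the groups overlapped either way. The log2 differences were 0.17 ± 0.11 (HF minus LF), 0.18 ± 0.11 (HFLF minus LF) and 0.01 ± 0.11 (HFLF minus HF), with edgeR adjusted p of 0.867, 0.508 and 0.997, and the sign of the last turned under total count scaling (-0.04). The 95% interval of the HFLF to LF fold was 0.959 to 1.33. edgeR called 0 of 638 miRNAs (0%) in each eWAT comparison, with 49, 98 and 21 at an unadjusted p under 0.05. DESeq2 called 16 in HF minus LF and 33 in HFLF minus LF, neither arm of miR-22 being called there.

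The tissue comparison had a larger difference, and its size depended on the scaling of the libraries. Under TMM over both tissues, miR-22-3p ran from 1394 to 5854 CPM over the 18 liver libraries (median 4360, mean 4256 ± 1322) and from 1175 to 2937 over the 18 eWAT libraries (median 1867, mean 1968 ± 438). Without the libraries that stood apart it ran from 3301 to 5854 CPM in liver (4611 ± 877, n = 16) and from 1587 to 2937 in eWAT (2060 ± 369, n = 16), with no overlap. In HFLF the tissues did not overlap (3667 to 5714 against 1819 to 2623 CPM). In HF they overlapped only through the liver library HF 6, with 1435 CPM against 1691 to 2209 in eWAT and at least 3577 in the other liver libraries. The liver minus eWAT log2 difference of miR-22-3p under TMM was 1.14 ± 0.25 in LF, 1.03 ± 0.25 in HF and 1.17 ± 0.25 in HFLF (2.20-, 2.04- and 2.24-fold), with edgeR adjusted p of 0.000325, 0.000871 and 0.000217. In these fits the share of all 681 miRNAs called was 47.4% in LF, 49.6% in HF and 48.6% in HFLF, and the share called higher in liver was 16%, 17.6% and 19.2%, so a tissue difference as such was common. Under total count scaling it was -0.14, -0.14 and 0.04, which did not pass (adjusted p = 0.632, 0.641 and 0.907).

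miR-22-5p was higher in liver under TMM, with no overlap of the 18 liver and 18 eWAT libraries. It ran from 288 to 583 CPM in liver (median 408, mean 416 ± 71.5) and from 104 to 169 in eWAT (median 139, mean 139 ± 16.8). Without the libraries that stood apart the means were 404 ± 61.3 and 144 ± 12.7 CPM (n = 16 each). The log2 difference was 1.63 ± 0.15 in LF, 1.53 ± 0.15 in HF and 1.57 ± 0.15 in HFLF (3.10-, 2.89- and 2.96-fold), with edgeR adjusted p of 1.16e-11, 4.4e-11 and 2.8e-11. Under total count scaling the direction was kept at a smaller size: 0.33 in LF, which missed the threshold (adjusted p = 0.0505), 0.37 in HF (0.0293) and 0.44 in HFLF (0.011). Without the libraries that stood apart the TMM differences were 1.09, 1.18 and 1.15 for miR-22-3p and 1.47, 1.40 and 1.55 for miR-22-5p.

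The scalings differ in how they treat miR-122-5p, the hepatocyte miRNA, which took 45.6% to 57.0% of the counts of a liver library and 0.0137% to 0.309% of an eWAT library. The median log2 difference of all miRNAs was -0.60, -0.48 and -0.27 under TMM and -1.87, -1.66 and -1.39 under total count scaling. With miR-122-5p left out of the totals, a scaling added after the data were seen, miR-22-3p differed by 0.88, 0.85 and 1.01 (edgeR adjusted p = 0.0025, 0.00312 and 0.000672) and miR-22-5p by 1.37, 1.37 and 1.42. Relative to the median of all miRNAs, miR-22-3p stood 1.73 log2 units higher in LF under TMM and 1.73 under total counts, 1.51 and 1.52 in HF, and 1.44 and 1.43 in HFLF. For miR-22-5p these values were 2.23 and 2.20 in LF, 2.01 and 2.03 in HF, and 1.84 and 1.82 in HFLF. A change of scaling shifts all miRNAs of a library alike, so these distances hardly change with it by construction. They cannot show which scaling is right or that a tissue difference holds under each. As a share of all counts, by contrast, the major arm overlapped between the tissues, with 2833 ± 916 CPM in liver and 2976 ± 639 in eWAT (n = 18 each), and 3074 ± 625 and 3120 ± 509 without the libraries that stood apart (n = 16 each). The minor arm overlapped on that scale too, with 210 to 408 CPM in liver and 156 to 249 in eWAT. Without the libraries that stood apart it ran from 210 to 335 and from 172 to 249. In whole tissue, a different number of cells of a type and a different amount of miRNA per cell cannot be told apart.

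**Figure D2:**
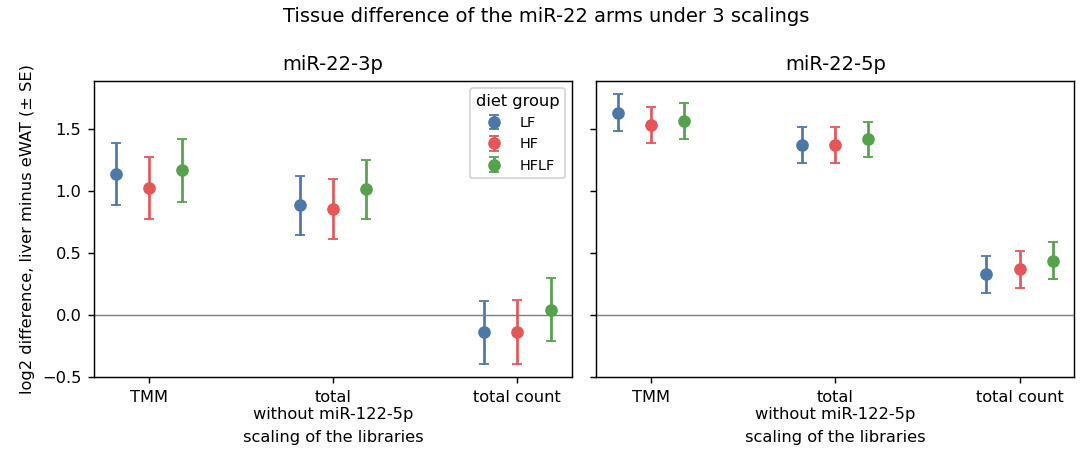
Liver minus eWAT log2 difference (± SE) of miR-22-3p (left) and miR-22-5p (right) in the 3 diet groups, each with 6 liver and 6 eWAT libraries, under TMM, total counts without miR-122-5p, and total counts. Points above the grey line at 0 are higher in liver; miR-22-3p moves from 1.03 to 1.17 under TMM to -0.14 to 0.04 under total counts, and miR-22-5p from 1.53 to 1.63 to 0.33 to 0.44.

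The tissue difference did not change with diet beyond its error. The change in the liver minus eWAT difference from LF to HF was -0.11 ± 0.35 for miR-22-3p and -0.10 ± 0.20 for miR-22-5p on the log2 scale under TMM (edgeR adjusted p = 1 for each). From LF to HFLF it was 0.03 ± 0.35 and -0.07 ± 0.20 (adjusted p = 1 for each). The 95% interval for miR-22-3p reached from -0.83 to 0.60 for HF and from -0.69 to 0.74 for HFLF. For miR-22-5p under total count scaling the values were 0.04 and 0.11, so their sign turned. Of all 681 miRNAs, 2.5% were called in the HF and 1.91% in the HFLF comparison.

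The arm ratio compares the strands of the duplex within a library and needs no scaling between libraries. In liver the 3p count divided by the 5p count ran from 3.21 to 13.6 in LF (median 11.02, mean 9.86 ± 3.78, n = 6), from 2.46 to 13.1 in HF (11.5, 10.2 ± 3.90) and from 7.74 to 15.8 in HFLF (11.7, 11.7 ± 2.91). In eWAT it ran from 10.7 to 21.5 in LF (median 12.4, mean 13.6 ± 3.94, n = 6), from 10.9 to 15.8 in HF (13.8, 13.7 ± 1.83) and from 12.0 to 17.9 in HFLF (15.04, 15.1 ± 2.05). All groups overlapped between the diets, and the eWAT medians were above the liver medians in each diet group. More 3p than 5p was found in 49 of 111 measured arm pairs in liver (44.1%) and in 74 of 150 in eWAT (49.3%), and a higher mean ratio than that of miR-22 in 26 (23.4%) and 31 (20.7%).

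Diet did not move the ratio beyond its error. The log2 ratio differed by 0.01, 0.34 and 0.33 ± 0.43 in liver (HF minus LF, HFLF minus LF, HFLF minus HF) and by 0.04, 0.18 and 0.14 ± 0.16 in eWAT. In limma's fit over all arm pairs 0 of 111 pairs (0%) in liver and 0 of 150 (0%) in eWAT were called in any diet comparison, with 4, 5 and 4 pairs in liver and 5, 5 and 2 in eWAT at an unadjusted p under 0.05. Without LF 4 and HF 6, HFLF minus HF in liver was -0.04, and without LF 1 and LF 4, HF minus LF in eWAT was -0.06, so those directions turned.

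Between the tissues the ratio was lower in liver in each diet group, and this did not pass the adjusted test. The log2 difference was -0.56 ± 0.33 in LF, -0.59 ± 0.33 in HF and -0.40 ± 0.33 in HFLF, with limma adjusted p of 0.293, 0.236 and 0.577. Of the 133 pairs tested, 12.8%, 7.52% and 9.77% were called. A two-sided exact permutation test of the miR-22 ratio alone gave p = 0.130, 0.0390 and 0.0433, and 0.390, 0.195 and 0.195 when adjusted over the 9 ratio comparisons; the smallest p that 6 against 6 libraries allow is 0.00217. Without the libraries that stood apart the differences were -0.36, -0.21 and -0.40 (limma adjusted p = 0.223, 0.379 and 0.0799). The change of this difference from LF was -0.03 ± 0.46 in HF and 0.16 ± 0.46 in HFLF, with 0 of 133 pairs (0%) called and 8 and 3 at an unadjusted p under 0.05.

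**Figure D3:**
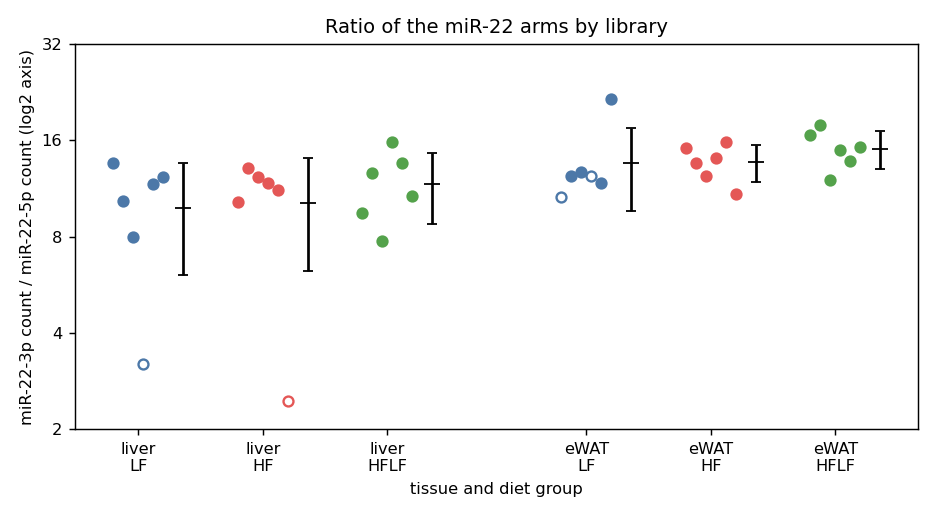
Ratio of the miR-22-3p count to the miR-22-5p count in each library, by tissue and diet group, on a log2 axis. Each point is 1 library, open points are the 4 libraries that stood apart, and bars are the mean ± SD of the ratio (n = 6). Liver LF 4 (3.21) and HF 6 (2.46) lie under all other libraries, and eWAT LF 6 (21.5) lies above them.

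In liver LF 4 and HF 6, the libraries with the low ratios, miR-22-3p was low under every scaling tried, and miR-22-5p was high under every scaling in HF 6 only. In LF 4 miR-22-3p was at 0.396 of the median of the other 16 liver libraries under TMM and miR-22-5p at 1.38 of it. In HF 6 these values were 0.459 and 2.08. As shares of all counts they were 0.262 and 0.964 in LF 4 and 0.328 and 1.57 in HF 6, and with miR-122-5p left out of the totals 0.289 and 1.03 in LF 4 and 0.339 and 1.58 in HF 6. The minor arm made up 23.8% of the miR-22 counts in LF 4 and 28.9% in HF 6, while the other 16 liver libraries had a 3p to 5p ratio of 7.74 to 15.8 (median 11.7). These libraries shifted arm ratios in many pairs. The median absolute shift over 111 pairs was 2.15 log2 units in LF 4 and 1.72 in HF 6, against shifts of -1.87 and -2.25 for miR-22. In LF 4, 59 pairs were shifted further than miR-22, and in HF 6, 48 pairs were. The shifts went both ways, towards the 5p arm in 59 pairs and towards the 3p arm in 52 in each library. Pairs entered from a median of 10 counts per arm, so an arm with few or no counts in these libraries can give a large shift. miR-22 was far above that, with 6815 (3p) and 2124 (5p) counts in LF 4 and 18920 and 7690 in HF 6. The part of low counts in the shifts of the other pairs was not tested.

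**Figure D4:**
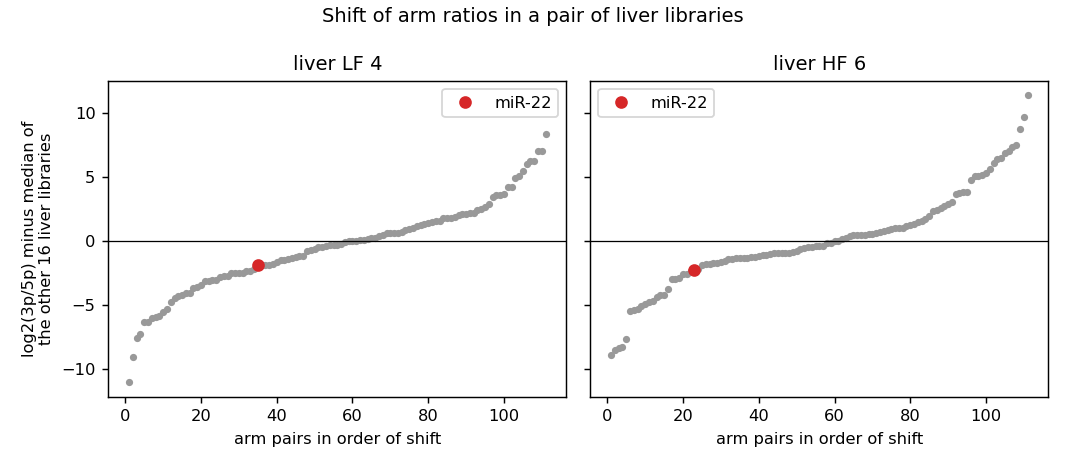
Shift of the log2 3p to 5p ratio of each of 111 arm pairs in liver LF 4 (left) and HF 6 (right) from the median of the other 16 liver libraries, pairs in order of shift. The red point is miR-22, at -1.87 and -2.25 log2 units. Pairs lie on both sides of 0 in both libraries.

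Away from the libraries that stood apart, the miR-22 ratio varied less within groups than that of most pairs. Its SD within groups, without the libraries that stood apart, was 0.27 log2 units in liver and 0.24 in eWAT, against a median over all pairs of 0.50 and 0.44. Only 24 of 111 pairs in liver and 34 of 150 in eWAT had a smaller SD. The ratio still ran from 7.74 to 15.8 over these liver libraries. Those left out of liver, LF 4 and HF 6, had the lowest miR-22 ratios (3.21 and 2.46) and were chosen with their values known. SDs with them kept in were not compared. eWAT LF 6, flagged below, was kept in, at 21.5 against an LF median of 12.4. Pairs differ in their counts, and the part of count size in these SDs was not tested.

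The arms of the hairpin did not follow each other closely from library to library. The values here are Pearson correlations of log2 TMM CPM centred on each diet group. They describe libraries that share their depth and scaling, and carry no test. Over the 18 liver libraries the r between miR-22-3p and miR-22-5p was -0.784, which rested on LF 4 and HF 6, since without them it was -0.244 (n = 16). In eWAT it was 0.468 over 18 libraries and 0.0718 over the 16 without LF 1 and LF 4. By likeness to miR-22-3p its own other arm ranked 456 of 477 miRNAs in liver and 53 of 637 in eWAT, and 345 and 238 without the libraries that stood apart.

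Other miRNAs followed miR-22-3p more closely. In liver the most alike were miR-194-5p (r = 0.947), miR-148a-3p (0.938) and miR-99a-5p (0.934), of which the first and second are among the hepatocyte miRNAs. Without LF 4 and HF 6 they were miR-1843b-5p (0.826), miR-30a-5p (0.826) and miR-99a-5p (0.816). In eWAT they were miR-322-5p (0.839), miR-708-3p (0.837) and miR-126a-3p (0.824), the last an endothelial miRNA, and without LF 1 and LF 4 miR-1843a-5p (0.768), miR-148a-5p (0.737) and miR-708-3p (0.731). miR-99a-5p in liver and miR-708-3p in eWAT were thus among the most alike with and without the libraries that stood apart. The rankings share 16 libraries, so this recurrence is no separate check. Each takes the 3 highest of 477 miRNAs in liver or 637 in eWAT, and how high these run by chance was not tested. Most alike to miR-22-5p in liver were miR-20a-5p (0.920), miR-17-5p (0.911) and miR-122-3p (0.875), the last also a hepatocyte miRNA. Without LF 4 and HF 6 they were miR-23b-5p (0.757), miR-6538 (0.720) and miR-369-3p (0.712). In eWAT they were miR-193a-5p (0.774), miR-484 (0.734) and miR-664-3p (0.719). Without LF 1 and LF 4 they were miR-19b-3p (0.668), miR-1839-5p (0.646) and miR-679-5p (0.639). The endothelial list moved with the libraries that stood apart. Its 2 members summed to 10526 and 11634 CPM in eWAT LF 1 and LF 4 and to 16824 to 25903 in the other 16. In liver they summed to 1744 in LF 4 and 2328 in HF 6 and to 3670 to 6074 in the other 16. Lower in liver LF 4 and HF 6 too was the list of Tet repressors described below (30510 and 37189 CPM against 42443 to 63832). The epithelial list was lower there as well (188 and 128 CPM against 306 to 847). Other lists moved with eWAT LF 1 and LF 4 as well. The erythroid list was lower (2448 and 3295 CPM against at least 3787). The mesenchymal list (24662 and 15799 against 10276 to 15666) and the striated muscle list (3496 and 3599 against at most 3326) were higher. So was the hepatocyte list (12886 and 11927 against 7386 to 10707). The part of these lists in the correlations was not tested.

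The miRNA genes near Mir22 were far less expressed. Within 1000000 bases on chromosome 11 the annotation holds Mir132 and Mir212, a cluster 289968 and 290237 bases away, and Mir3971 and Mir6926, 87618 and 595521 bases away. miR-132-3p, the most abundant of them, had a median of 32.5 CPM in liver (1.88 to 47.4) and 93.2 in eWAT (63.8 to 126). miR-212-5p had medians of 4.91 and 11.7 CPM, and the products of Mir3971 and Mir6926 had a median of 0 in both tissues. Where the arms of miR-22 were higher in liver under TMM, miR-132-3p differed by -0.57 ± 0.34 in LF on the log2 scale (edgeR adjusted p = 0.164). No product of Mir132 or Mir212 was called in any comparison under TMM. As a share of all counts, miR-132-3p was lower in every liver library (1.88 to 47.4 CPM) than in any eWAT library (63.8 to 126).

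Other miRNAs known to repress Tet enzymes were set beside miR-22-3p. Of 6 such miRNAs (the miR-29 and miR-26 families and miR-101a-3p), 5 were called higher in liver than in eWAT under TMM in each diet group, with median log2 differences of 0.98, 1.14 and 1.03. Of all 681 miRNAs 16%, 17.6% and 19.2% were called higher in these fits. Under total count scaling these medians turned to -0.32, -0.02 and -0.10, and 1 of the 6 was called higher in each diet group and 3, 1 and 1 lower, where of all miRNAs 5.87%, 7.78% and 8.52% were called higher and 62%, 57.1% and 54% lower. miR-29c-3p was the one called higher under both scalings (in LF 2.34 ± 0.35 under TMM, edgeR adjusted p = 8.76e-07, and 1.03 under total counts). miR-26a-5p was at -0.33 ± 0.17 in LF under TMM (adjusted p = 0.0973) and -1.63 under total counts, and in HF it was called lower under TMM (-0.50 ± 0.17, adjusted p = 0.0115). Beside these, miR-22-3p was at 1.14, 1.03 and 1.17 under TMM and at -0.14, -0.14 and 0.04 under total counts. Its values were above the median of all miRNAs in each case, a distance that the scaling hardly changes by construction.

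In a list of 16 miRNAs with known roles in lipid and glucose metabolism, 8, 8 and 9 were called higher in liver under TMM and 6, 5 and 5 lower, with medians of 0.55, 0.54 and 0.85 that turned to -0.74, -0.62 and -0.28 under total counts (3, 4 and 4 higher, 9, 7 and 7 lower). The shares of all miRNAs were, under TMM, 16%, 17.6% and 19.2% higher and 31.4%, 32% and 29.4% lower, and under total counts 5.87%, 7.78% and 8.52% higher and 62%, 57.1% and 54% lower. miR-29a-3p is in this list and that of the Tet enzymes. The extremes in LF were miR-122-5p, at 10.26 ± 0.55, and miR-375-3p, an epithelial and islet miRNA, at -5.69 ± 1.25. The latter was at -0.35 in HF and 1.5 in HFLF, the groups without the eWAT libraries LF 1 and LF 4. miR-143-3p of fat stroma was lower in liver in each group (-2.36, -2.45 and -2.57). All 8 hepatocyte miRNAs were called higher in liver under TMM and all 7 of the adipocyte and fat stroma list lower, and under total counts 7 of the 8 were higher and all 7 lower. In the diet comparisons 0 members of these lists were called by edgeR in either tissue, as for all miRNAs.

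The authors' deposited log2 tables place the arms alike. In the 16 liver libraries of that table miR-22-3p lay between 11.29 and 12.23 log2 CPM (median 11.92) and miR-22-5p between 7.80 and 8.68. In the 18 eWAT libraries miR-22-3p lay between 9.88 and 11.21 (median 10.56) and miR-22-5p between 6.38 and 7.11. In those values, scaled by the authors, both arms were higher in every listed liver library than in any eWAT library. This is no separate check. The authors' miR-22-3p values lay below the log2 TMM values over both tissues by a similar amount throughout. The differences were -0.40 to -0.26 in liver and -0.33 to -0.29 in eWAT. The liver libraries that stood apart are missing from that table, and under that TMM scaling their miR-22-3p lay inside the eWAT range. As a share of all counts both arms overlapped between the tissues.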

How the data were processed

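The authors deposited whole-number read counts per mature miRNA and precursor. The submitters' processing notes name cutadapt, Bowtie and the build GRCm38.p6, with no versions or settings. The authors also deposited CPM columns, which are counts scaled to the column total, and log2 CPM tables per tissue. Columns name tissues L and W and groups C, H and R, read as liver, eWAT, LF, HF and HFLF. Where a mature miRNA had several lines, the highest-total line was kept (87 had several lines, 51 of them identical; miR-22 has 1 line per arm). Libraries held 7866583 to 18832842 counts. No 2 libraries of a group agreed within counting error (lowest chi-square per degree of freedom 61.8).

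The main test on the counts was that of edgeR 4.0.16 in R 4.3.3 (TMM, filterByExpr with minimum count 10 and total 15, robust quasi-likelihood F test, Benjamini-Hochberg adjusted p under 0.05). Each tissue was fitted alone for diet, and both together for tissue. Arm ratios, log2((3p + 0.5)/(5p + 0.5)), were fitted with limma 3.58.1 over pairs whose arms both had a median of at least 10 counts. Intervals use the residual degrees of freedom (15 within a tissue, 30 over both). The scripts were tested on simulated data. Alternatives were DESeq2 1.42.0, RLE and total count scaling, no filter, the replicate block, summed lines, other ratio settings, each library left out, and the libraries that stood apart left out. Replicate numbers were not used to pair libraries in the main tests, because the labels do not say that they do. Correlations of same-numbered deviations ran from -0.288 to 0.275. Low correlations cannot settle whether same-numbered liver and eWAT libraries came from 1 mouse. The main tissue tests treated all libraries as independent. The hairpin was folded with RNAfold 2.7.2. miRNAs named beside miR-22 are the 3 most correlated per tissue, those sharing a seed, those within 1000000 bases, and the extremes of the lists of related miRNAs. The members and lists were chosen with earlier results of these data known. 1 list of related miRNAs is not reported here.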

Additional observations from a re-analysis of the deposited data

Results flagged for a closer look

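The arms and their ratio were checked in each of the 6 groups of 6 libraries, 18 checks that are not independent. A library far from the others was found in 5 of these checks, in 3 of the groups, where chance flags about 1 check in 20. Liver HF 6 had the lowest miR-22-3p of its group, 1330 TMM-scaled CPM, the highest miR-22-5p, 540 CPM, and the lowest arm ratio, 2.46. Liver LF 4 had the lowest arm ratio of its group, 3.21. eWAT LF 6 had the highest, 21.5, through its miR-22-3p of 4301 CPM, while its miR-22-5p of 200 CPM lay inside the LF range.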

How the results depend on the processing

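Across all alternatives miR-22-5p kept its direction in the 3 tissue comparisons, and it passed in all but total count scaling in LF (0.33, adjusted p = 0.0505). miR-22-3p in liver minus eWAT passed under every alternative but total count scaling (-0.14 in LF, -0.14 in HF, 0.041 in HFLF). None of the diet differences of either arm passed except miR-22-3p in eWAT HFLF minus LF without LF 6. Leaving out 1 library at a time gave log2 ranges that crossed 0, or moved a count, as follows. In liver, HF minus LF ran from -0.084 to 0.23 for miR-22-3p, -0.095 to 0.23 for miR-22-5p and -0.29 to 0.38 for the ratio. HFLF minus LF ran from -0.015 to 0.15 for miR-22-5p, and HFLF minus HF from -0.18 to 0.14 for miR-22-5p and -0.040 to 0.44 for the ratio. In eWAT, HF minus LF ran from -0.023 to 0.18 for the ratio, HFLF minus HF from -0.046 to 0.033 for miR-22-5p, and HFLF minus LF from 0.17 to 0.46 for miR-22-3p, with 0 to 17 miRNAs called. The change of the tissue difference in HF ran from -0.31 to 0.12 for miR-22-3p, -0.21 to 0.11 for miR-22-5p and -0.33 to 0.34 for the ratio, with 4 to 20 called. In HFLF it ran from -0.16 to 0.20, -0.12 to 0.071 and -0.14 to 0.28, with 5 to 17 called. Without the libraries that stood apart, the values that turned were liver HF minus LF (miR-22-5p -0.0096), liver HFLF minus HF (miR-22-5p 0.16, ratio -0.040), eWAT HF minus LF (miR-22-3p -0.036, ratio -0.062) and eWAT HFLF minus HF (miR-22-5p -0.015). The change of the tissue difference turned there for miR-22-3p (0.10) and the ratio (0.15) in HF, and for miR-22-5p (0.083) and the ratio (-0.037) in HFLF. Total count scaling turned miR-22-5p in HFLF minus HF (0.031 in liver, -0.039 in eWAT) and the change of the tissue difference (miR-22-3p 0.0021 and miR-22-5p 0.041 in HF, miR-22-5p 0.11 in HFLF). With miR-122-5p left out of the totals, miR-22-5p gave 3.8e-05 in HF and 0.043 in HFLF. DESeq2 called 16 miRNAs in eWAT HF minus LF and 33 in HFLF minus LF, and 35 and 28 for the change of the tissue difference in HF and HFLF, against 17 and 13 by edgeR. Without a filter on low counts 6 were called in HF, and without the libraries that stood apart 1 and 0. With the replicate block 0 and 0 were called there, and the block changed no call for miR-22 (1.08, 0.92 and 1.16 for miR-22-3p between tissues). Same-numbered libraries did not deviate together, and at most 2 of 6 in any pair of groups correlated best with their own number. The causes of these changes were not tested. Counting error at this depth is small for both arms, and the spread between libraries limits the intervals.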
